A study of Mus musculus with 108 samples.

Results

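The vomeronasal receptor genes were examined in the chromatin state maps of mouse liver. The genes were the RefSeq records on the autosomes of GRCm38.p6 (mm10) whose symbol begins with Vmn1r or Vmn2r, 616 of 46709 autosomal gene records. Each gene was given a window, its gene body with 5 kb on either side, and the windows together held 57056 of 12313718 autosomal bins of 200 bp, or 11.4 Mb. Genes under 500 kb apart on a chromosome were put in a genomic cluster. Around that limit, the widest gaps kept inside a cluster were 351 kb between Vmn2r56 and Vmn1r85 and 395 kb between Vmn1r-ps11 and Vmn1r21, and the narrowest gaps that split clusters were 521 kb between Vmn2r-ps16 and Vmn2r-ps18 and 524 kb between Vmn2r37 and Vmn2r-ps50. This gave 51 clusters, of which 18 held at least 5 genes and 554 genes in all. The windows of 141 genes shared at least 1 bin with the window of another member.

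The maps came from ChIP-seq of H3K4me3, H3K27me3, H3K27ac and H3K4me1 in livers that had been fixed in formalin and embedded in paraffin, taken from female C57BL/6 mice. The group SD 3m was fed a standard diet (SD) and was 3 months old (8 mice, 30 libraries), SD 12m was fed the same diet and was 12 months old (8 mice, 29 libraries), and CR 12m was kept on 30% caloric restriction (CR) and was 12 months old (9 mice, 29 libraries). The authors merged the libraries of each group and used ChromHMM to give every bin 1 of 8 states, so that each group has 1 map made of whole livers, no spread between mice can be computed and no test across mice was possible. In what follows they are called the young (SD 3m), the aged (SD 12m) and the restricted (CR 12m) livers or maps, of which the aged and restricted are of the same age, and where 3 values follow each other they stand in that order. States 1 to 5 are active or poised promoters and enhancers, state 6 is the Polycomb-repressed state marked by H3K27me3, state 7 carries weak H3K4me3 with almost no H3K27me3, and state 8, called quiescent, carries none of the 4 marks.

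Vomeronasal receptors are G protein-coupled receptors with which sensory neurons of the vomeronasal organ detect pheromones and signals of other species. The V1R family (Vmn1r genes) is expressed in apical neurons together with the G protein subunit Gnai2, and most of its genes have a short, intronless coding sequence. The V2R family (Vmn2r genes) is expressed in basal neurons with Gnao1, and its genes are split into several exons that encode a long extracellular part. Both families lie in tandem arrays rich in recent duplicates and pseudogenes, and hepatocytes are not known to use them. Of the 616 genes, 366 were Vmn1r (229 protein-coding, 137 pseudogenes) and 250 were Vmn2r (122 protein-coding, 128 pseudogenes). The median length of a protein-coding gene was 924 bp for Vmn1r and 24640.5 bp for Vmn2r. The TSS bins of all 8 hepatocyte markers looked up (Alb, Apoa1, Ttr, Fgb, Hnf4a, Cps1, Serpina1a and Tat) were in states 1 to 5 in all 3 groups. Those of the neuron markers Omp and Gng8 were too, so these states alone do not tell the tissue.

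Both families sit in AT-rich sequence. The windows had a GC content of 38.0% and 5.02 CpG dinucleotides per kb, against 41.9% and 8.51 per kb over the autosomes, and 45.1% of their bases were marked as repeats in the reference against 33.5%. The bins below show what such sequence looks like. Throughout, the transcription start (TSS) of a gene is the start of its RefSeq record, which was not checked against transcripts. For each gene, the last whole bin before this start is printed 5′ to 3′ on the strand of the gene, from GRCm38.p6, with CpG dinucleotides in capitals. The genes were picked to show each outcome described in what follows. The bin of Vmn1r66 (chr7:10275401-10275600, minus strand) and that of Vmn2r111 (chr17:22573401-22573600, minus strand) were in state 8 in young livers, state 7 in aged livers and state 8 in restricted livers, and that of Vmn1r33 (chr6:66612601-66612800, minus strand) was in state 6 in aged livers and in state 8 in the others. The bin of the pseudogene Vmn2r-ps58 (chr7:42302801-42303000, plus strand) was in state 7 in all 3 groups, that of Vmn1r1 (chr1:182158201-182158400, minus strand) was in state 4, an active enhancer state, in all 3, and that of Vmn1r93 (chr7:20139201-20139400, minus strand), a gene of the largest array, was in state 8 in all 3.
Vmn1r66: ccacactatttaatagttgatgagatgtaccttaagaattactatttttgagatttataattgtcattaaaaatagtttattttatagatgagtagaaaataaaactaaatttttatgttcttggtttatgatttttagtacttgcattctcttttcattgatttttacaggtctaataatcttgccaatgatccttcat
Vmn2r111: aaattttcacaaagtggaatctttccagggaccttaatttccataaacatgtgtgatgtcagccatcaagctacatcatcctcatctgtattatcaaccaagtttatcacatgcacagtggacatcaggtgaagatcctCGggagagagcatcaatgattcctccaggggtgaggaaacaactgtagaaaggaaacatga
Vmn1r33: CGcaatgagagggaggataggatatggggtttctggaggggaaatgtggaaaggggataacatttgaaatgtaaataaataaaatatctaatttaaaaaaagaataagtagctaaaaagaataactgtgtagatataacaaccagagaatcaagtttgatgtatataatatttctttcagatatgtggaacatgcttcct
Vmn2r-ps58: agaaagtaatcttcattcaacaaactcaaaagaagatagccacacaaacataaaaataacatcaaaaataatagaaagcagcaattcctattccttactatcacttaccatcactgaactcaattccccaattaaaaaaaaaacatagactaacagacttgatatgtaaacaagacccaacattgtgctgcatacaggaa
Vmn1r1: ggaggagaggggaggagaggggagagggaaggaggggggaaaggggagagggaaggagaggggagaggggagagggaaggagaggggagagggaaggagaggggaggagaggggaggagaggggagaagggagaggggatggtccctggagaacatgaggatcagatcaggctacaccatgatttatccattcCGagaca
Vmn1r93: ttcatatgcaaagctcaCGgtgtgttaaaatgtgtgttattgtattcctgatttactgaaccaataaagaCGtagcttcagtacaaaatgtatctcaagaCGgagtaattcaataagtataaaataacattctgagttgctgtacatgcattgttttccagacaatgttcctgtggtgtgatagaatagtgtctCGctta
The bins held 0 to 4 CpG dinucleotides, and their GC content ran from 24.0% for Vmn1r66 to 61.0% for Vmn1r1. Of the 50-mers that start in a bin, 100% were found once in the genome in the Vmn1r66 bin, 24.0% in the Vmn2r111 bin and 0% in the Vmn1r93 bin. The authors removed reads with a mapping quality under 1, which bwa gives to reads with several equal places in the genome, and the share of unique 50-mers is therefore given beside the results. Its part in the results was not tested beyond the values given within unique bins.

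RefSeq promoters of 300 bp (250 bases before the start and 50 after it, GRCm38.p6) were held for 322 of the 616 genes. They were poor in CpG, with a median of 1 per promoter against 7 over all 32851 promoters, and 24.1% of the 323 member promoters had none against 5.43% of all. The letters TATAAA, on either strand, were in 42.2% of the 206 Vmn1r promoters, 23.1% of the 117 Vmn2r promoters and 13.6% of all promoters. CCAAT was in 67% of Vmn1r promoters, 29.9% of Vmn2r promoters and 37.4% of all. TAATTA was in 7.28%, 17.1% and 5.29% in that order, and GGGCGG, found in 35.7% of all promoters, was in none of the 323. Among members whose TSS bin was in state 8 in young livers, TATAAA was in 37.5% of the 56 promoters whose TSS bin was in state 7 in aged livers and in 38.1% of the 223 whose TSS bin was still in state 8. TAATTA was in 17.9% and 8.07% of these promoters, and 35.7% and 19.7% of them had no CpG. The promoters were not split by family or array here. The TSS bin went from state 8 to state 7 in aged livers in 28% of Vmn2r and 14.2% of Vmn1r genes. A difference between families or arrays therefore cannot be told apart from one between these outcomes. All these shares of promoters describe letters and not binding. Protein-coding Vmn1r records are short (median 924 bp) and may begin at the coding sequence, so their promoters here may not lie at a transcription start.

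In young liver most of the vomeronasal receptor sequence carried none of the marks, and in aged livers much of it was in state 7. State 8 covered 88.9% of the bins in young livers, 64.9% in aged livers and 80.6% in restricted livers. State 7 covered 8.16% in young livers (95% Wilson interval over bins 7.94 to 8.39), 29.0% in aged livers (28.6 to 29.4) and 16.6% in restricted livers (16.3 to 16.9). These intervals cover counting over bins only, and neighbouring bins are not independent. State 7 was 3.55-fold higher in aged livers and 2.03-fold higher in restricted livers than in young livers, and 1.75-fold higher in aged livers than in restricted livers. State 6 covered 2.44%, 5.51% and 2.22% of the bins in the young, aged and restricted maps, and states 1 to 5 together covered 0.459%, 0.584% and 0.613%.

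The same order of groups was seen over the whole of the autosomes, where state 7 covered 1.92%, 11.9% and 4.35% of the bins. In relative terms the autosomes moved more, 6.19-fold from young livers to aged livers, and the receptor windows differed from them mainly in their level. State 7 was 4.25 times as frequent in the receptor windows as in the autosomes in young livers, 2.44 times in aged livers and 3.81 times in restricted livers. The receptor windows also had less state 6 (2.44% against 8.26% in young livers and 5.51% against 12.4% in aged livers). In unique bins, those in which at least 90% of the 50-mers occur once, the gap was smaller, with 4.36% against 9.43% in young livers and 9.89% against 14.3% in aged livers. States 1 to 5, which covered 23.9% of the autosomes in young livers, were nearly missing from the receptor windows. The number of H3K4me3 libraries behind a map was 7 in young livers, 8 in aged livers and 5 in restricted livers, and that of H3K27me3 libraries was 7, 8 and 6. The reads behind each map are not in the deposited labels, so the depth of a group and its age or diet cannot be told apart.

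**Figure D1:**
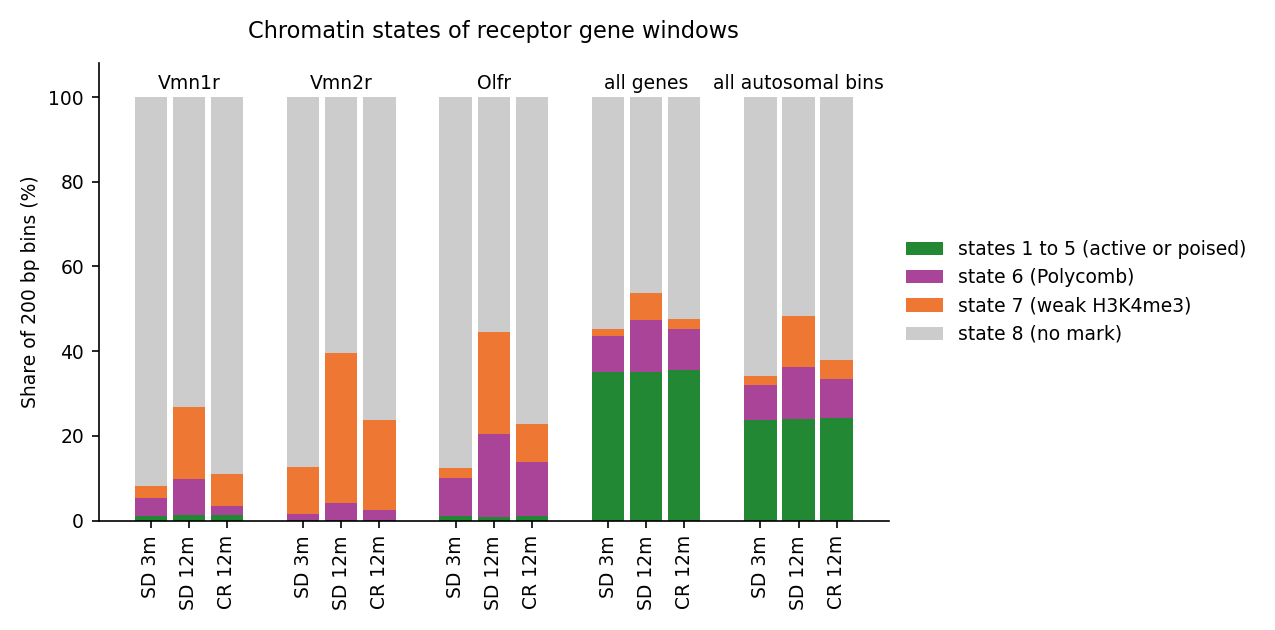
Share of 200 bp bins (percent, y axis) in states 1 to 5, 6, 7 and 8 in the windows of Vmn1r, Vmn2r and Olfr genes, in the windows of all autosomal genes and in all autosomal bins, with 1 bar for each group's map. In the Vmn2r windows state 7 takes 11% in young livers, 35.4% in aged livers and 21.3% in restricted livers, and the green share of states 1 to 5 is barely visible in both receptor families.

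The families differed. Vmn2r windows had 11% of their bins in state 7 in young livers, 35.4% in aged livers and 21.3% in restricted livers, while Vmn1r windows had 2.70%, 16.8% and 7.42%. State 6 covered 4.40%, 8.58% and 2.11% of Vmn1r windows and 1.43%, 3.92% and 2.28% of Vmn2r windows, so it was the more frequent in Vmn1r windows in young and aged livers only. The uniqueness of the sequence was nearly the same in both, with 46.5% of Vmn1r bins and 43.6% of Vmn2r bins holding at least 90% unique 50-mers. Within such unique bins the difference between families stayed, at 4.77%, 28.9% and 13.3% in state 7 for Vmn1r and 14.5%, 55.4% and 31.8% for Vmn2r.

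Pseudogenes had more state 7 than protein-coding genes in both families. In aged livers state 7 covered 25.5% of Vmn1r pseudogene windows and 12.1% of Vmn1r protein-coding windows. The protein-coding Vmn1r genes include 86 of the 99 genes of 1 array on chromosome 7. In that array 6.91% of the bins were unique and 0.166% were in state 7 in aged livers. The contrast was not repeated within unique bins, so it cannot be told apart from a difference in uniqueness. For Vmn2r the shares in aged livers were close, 36.6% and 34.5%, but in young livers they were 15.9% for pseudogenes and 7.53% for protein-coding genes.

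Bin by bin, state 7 mostly took the place of state 8, and most bins in state 7 in young livers were in it in the other groups too. Of the 50744 receptor bins in state 8 in young livers, 24.6% were in state 7 and 4.55% in state 6 in aged livers, and 12.0% and 1.68% in restricted livers. Over the autosomes, 15.8% of state 8 bins were in state 7 and 11.3% in state 6 in aged livers, so the new marks in the receptor windows were mostly of state 7. Of the 4657 receptor bins in state 7 in young livers, 86.6% were still in it in aged livers and 71.5% in restricted livers, against 72.6% and 52.8% over the autosomes. State 6 was less lasting, since 52.1% of its 1393 receptor bins were still in state 6 in aged livers and 27.5% in restricted livers, and most of the others were in state 8. Of the 9446 receptor bins in state 7 in restricted livers, 88.0% were in state 7 in aged livers as well, and of the 16554 in aged livers, 50.2% were in state 7 in restricted livers. The windows held 1.97% of all state 7 bins of the autosomes in young livers and 1.13% in aged livers, with 0.463% of the autosomal bins. In all, 28.4% of the receptor bins had another state in aged livers than in young livers (31.9% of the autosomal bins) and 16.6% had another state in restricted livers (24.2%).

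Much of the receptor sequence could not be read with unique 50-mers. On average 62.0% of the 50-mers starting in a receptor bin occurred once in the genome, against 86.9% in every 50th bin of the autosomes, and 19.8% of the receptor bins held none against 6.72%. State 7 was higher where the sequence was unique. In receptor bins with no unique 50-mer, state 7 covered 1.27% in young livers, 2.78% in aged livers and 1.90% in restricted livers, and 98.7%, 97% and 98.0% were in state 8. In receptor bins in which every 50-mer was unique, state 7 covered 10.9% in young livers, 46.8% in aged livers and 25.4% in restricted livers, against 1.57%, 11.7% and 3.94% of such bins in the sample of the autosomes. With at least 90% of the 50-mers unique, the shares were 11.1%, 45.8% and 25.3%, so the aged value was more than 1.5 times that over all receptor bins. In the same unique bins, 47.4% had another state in aged livers than in young livers against 35.3% of the unique autosomal bins, the opposite order to that over all bins. In duplicated receptor sequence a lack of marks and a lack of mapped reads cannot be told apart.

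**Figure D2:**
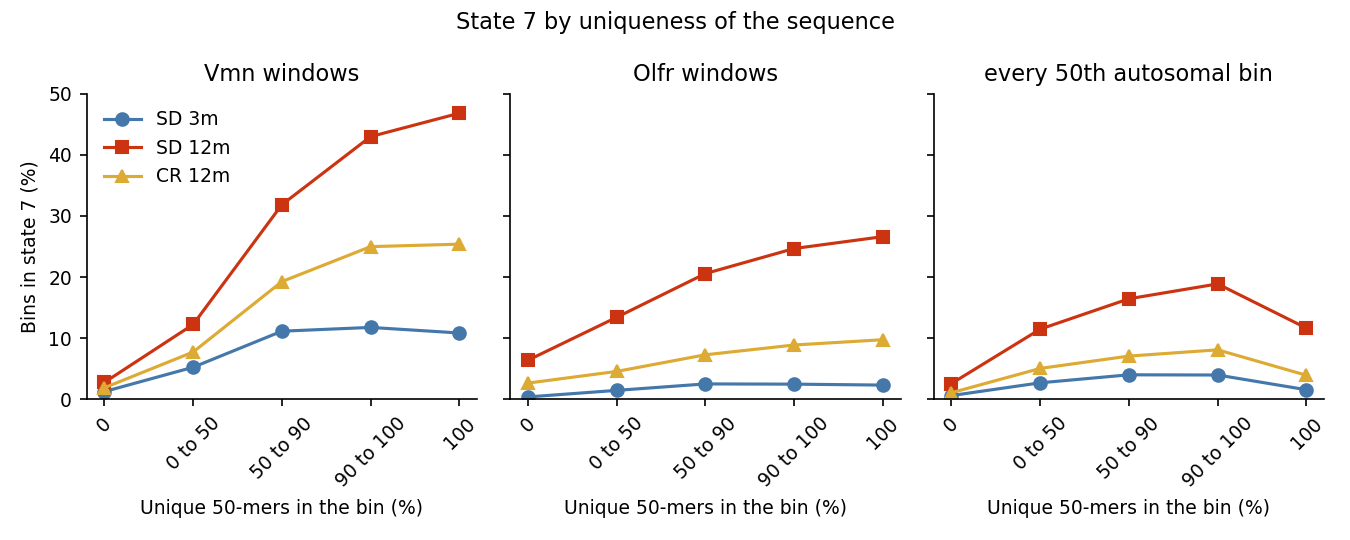
Share of bins in state 7 (percent, y axis) by the percent of 50-mers of the bin that occur once in the genome (x axis, 5 classes), for Vmn windows, Olfr windows and every 50th autosomal bin, with a line for each group's map. In Vmn windows the aged line goes from 2.78% with no unique 50-mer to 46.8% with all of them unique.

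Among unique receptor bins in state 8 in young livers, the 9235 that were in state 7 in aged livers had a GC content of 35.5% and 3.51 CpG per kb, the 1803 in state 6 had 37.9% and 3.77 per kb, and the 10219 still in state 8 had 37.3% and 3.98 per kb. The repeat content of these bins was 33.7%, 30.8% and 31.5%. The bins that came to state 7 were thus slightly poorer in GC and richer in repeats than the others. They were pooled over clusters, and 1 cluster on chromosome 17 with 36.1% GC held 30.3% of the receptor bins in state 7 in aged livers. A difference between clusters therefore cannot be told apart from one between bins.

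The clusters ranged from most of the sequence in state 7 to almost none of it. Over the 18 clusters of at least 5 genes the median share of state 7 was 2.10% in young livers, 17.4% in aged livers and 7.83% in restricted livers. It was higher in aged livers than in young livers in 14 clusters and lower in 2, higher in restricted livers than in young livers in 10 and lower in 6, and higher in aged livers than in restricted livers in all 18. The share of unique bins and that of state 7 in aged livers had a Spearman correlation of 0.51 over these 18 clusters, which is a description of clusters of unequal size from the same map. Leaving out 1 of these clusters at a time moved state 7 over all receptor windows to between 6.69% and 9.02% in young livers, 23.2% and 32% in aged livers, and 13.3% and 18.3% in restricted livers.

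**Figure D3:**
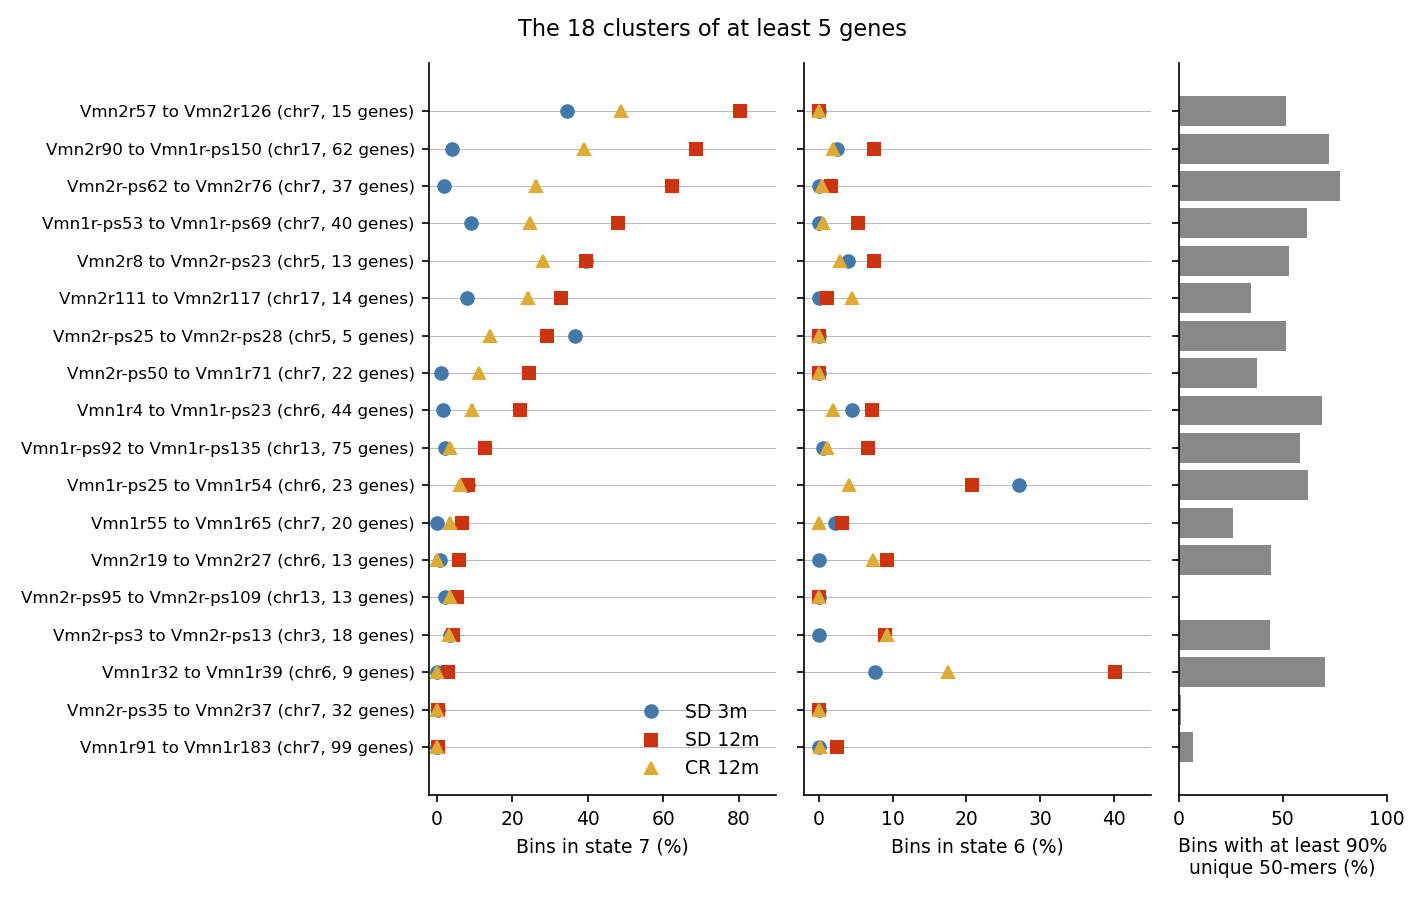
Share of bins in state 7 (left) and in state 6 (middle) in the 3 groups' maps, and share of bins with at least 90% unique 50-mers (right), for the 18 clusters of at least 5 genes, each named by its first and last gene. State 7 in aged livers ranges from 0.166% in the array of 99 Vmn1r genes, where 6.91% of the bins are unique, to 80.3% in the array from Vmn2r57 to Vmn2r126.

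The array on chromosome 7 at 41.4 to 43.0 Mb, 15 Vmn2r genes from Vmn2r57 to Vmn2r126, had the most state 7 in aged livers, 80.3% of its bins, with 34.4% in young livers and 48.8% in restricted livers. In its unique bins the shares were 44.5%, 96.9% and 57.2%. The pseudogene Vmn2r-ps55, the first by position among ties, had the largest gain of the array, from 0% in young livers to 100% in aged livers and 67.3% in restricted livers. The pseudogenes Vmn2r-ps58 and Vmn2r-ps59 of the same array were wholly in state 7 already in young livers and in both older groups, as were Vmn2r-ps19 and Vmn2r-ps20 on chromosome 4 and Vmn2r-ps112 on chromosome 16. These were the only 5 members with a window wholly in state 7 in young livers, and all are Vmn2r pseudogenes. The longest unbroken stretch of state 7 that overlapped the span of a cluster in young livers measured 151.6 kb, held Vmn2r-ps19 and Vmn2r-ps20 and ran on beyond the end of their cluster.

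The array on chromosome 7 at 84.8 to 86.2 Mb held 37 Vmn2r genes in mostly unique sequence, with 77.6% of bins unique. State 7 covered 1.76% of it in young livers, 62.3% in aged livers and 26.3% in restricted livers. The pseudogene Vmn2r-ps64 went from 0% to 100% in aged livers and had 22.6% in restricted livers. The mixed array at 11.7 to 13.2 Mb of the same chromosome, 35 Vmn1r and 5 Vmn2r genes, had 9.01%, 48.1% and 24.8%, and in it the pseudogene Vmn1r-ps55 went from 0% in young livers to 100% in both older groups. This array holds Vmn1r85 and Vmn1r89, which encode receptors for sulfated steroids and were looked up for that role. Vmn1r85 had no state 7 in any group and 40.0% of its window in state 6 in aged livers, and Vmn1r89 had 40.7% in state 7 in aged livers and none in the other groups. The array at 9.7 to 10.7 Mb (12 Vmn1r and 10 Vmn2r genes) had 1.07%, 24.4% and 11.3%, and its gene Vmn1r66 was wholly in state 8 in young livers, wholly in state 7 in aged livers and wholly in state 8 in restricted livers. The pseudogene Vmn1r-ps49 of that array had 0% in young, 100% in aged and 24.1% in restricted livers.

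Some arrays carried state 7 early and did not gain it. The array of 13 Vmn2r genes on chromosome 5 at 108.8 to 109.7 Mb had 39.6% in young livers, 39.6% in aged livers and 28.1% in restricted livers. Its largest gain was that of Vmn2r14, with 18.4%, 42.9% and 7.14%. The array of 5 Vmn2r genes at 151.4 to 151.6 Mb had 36.7%, 29.3% and 14.2%, and its pseudogene Vmn2r-ps27 had 29.5%, 36.1% and 16.4%. These values in the unique bins of the 2 arrays were 45.5%, 44.5% and 31.6%, and 45.9%, 32.5% and 12.6%.

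The largest array by number of genes, 99 Vmn1r genes on chromosome 7 at 20.1 to 24.1 Mb, was almost wholly in state 8, with 0% of its bins in state 7 in young livers, 0.166% in aged livers and 0% in restricted livers. Only 6.91% of its bins held at least 90% unique 50-mers, and in these 0.802% were in state 7 in aged livers. Its largest gain was that of Vmn1r167, 9.09% in aged livers. Vmn1r180, near its end, was in state 8 in the young and restricted maps and wholly in state 6 in aged livers. The Vmn2r array on chromosome 7 at 7.2 to 9.2 Mb (32 genes, 1.24% of bins unique) and that of 13 Vmn2r pseudogenes on chromosome 13 at 65.4 to 66.9 Mb (0.383% unique) had 0.204% and 5.23% in state 7 in aged livers, where Vmn2r-ps35 had 16.7% in the young and aged maps and 0% in restricted livers, and Vmn2r-ps108 had 23.7% in aged livers only. For these 3 arrays the labels rest on very few unique positions.

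Low state 7 was not limited to duplicated sequence. The Vmn1r array on chromosome 6 at 66.6 to 66.8 Mb (9 genes, 70.4% of bins unique) had 0%, 3.05% and 0% in state 7 but 7.63%, 40.1% and 17.6% in state 6. Vmn1r33 was wholly in state 6 in aged livers, with 0% in young livers and 43.6% in restricted livers, and its neighbour Vmn1r35 had 42.6% in state 6 and 29.6% in state 7 in aged livers and neither in the other groups. The Vmn1r array at 89.7 to 90.3 Mb (23 genes, 62.3% unique) had the most state 6 of the 18 in young livers, 27.2%, with 20.7% in aged livers and 4.05% in restricted livers, while its state 7 was 8.37%, 8.23% and 6.25%. In it the pseudogene Vmn1r-ps27 was wholly in state 6 in aged livers only, Vmn1r53 had 23.6% in state 7 in aged livers only, and Vmn1r49, which encodes a receptor for 2-heptanone and was looked up for that role, had 61.8% in state 6 in restricted livers only. The Vmn2r array on chromosome 3 at 64.1 to 64.9 Mb (18 genes, 43.8% unique) had 0%, 8.97% and 9.20% in state 6 and 3.44%, 4.24% and 3.28% in state 7, with Vmn2r6 at 15.3% in state 7 in aged livers. The Vmn2r array on chromosome 6 at 123.3 to 124.2 Mb (13 genes) had 0%, 9.29% and 7.41% in state 6, and its Vmn2r24 had 7.63% in state 7 in young livers, 36.0% in aged livers and 0% in restricted livers. State 6 was found in none of the 3 maps in 5 of the 18 clusters.

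The other 4 arrays lay between. In the array of 44 Vmn1r genes on chromosome 6 at 56.9 to 58.5 Mb state 7 covered 1.54%, 22.0% and 9.41%, and it fell on separate genes, since Vmn1r-ps8, Vmn1r26 and Vmn1r-ps14 were wholly in state 7 in aged livers (0% in young livers, and 47.3%, 43.6% and 0% in restricted livers) while Vmn1r21 was wholly in state 6 in aged livers and 94.4% in restricted livers. The array of 75 Vmn1r genes on chromosome 13 at 22.1 to 23.3 Mb had 2.15%, 12.7% and 3.46%, with Vmn1r194 at 0%, 100% and 72.7%. The array of 20 genes on chromosome 7 at 5.1 to 6.0 Mb had 0%, 6.65% and 3.37%, and its pseudogene Vmn1r-ps46 was higher in restricted livers (65.5%) than in aged livers (47.3%). The array of 14 Vmn2r genes on chromosome 17 at 22.5 to 23.5 Mb had 8.03%, 32.8% and 24.1%, and Vmn2r111 (chr17:22547941-22573273) had 0%, 100% and 66.5%. Vmn2r116, the receptor for the peptide pheromone ESP1, looked up for that role, lies in the same array and had no state 7 in any group, with 60.0% of its bins unique.

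The array on chromosome 17 at 17.7 to 21.3 Mb gave the most state 7 bins in aged and restricted livers, 30.3% and 30.2% of those of all members against 6.27% in young livers, and showed a switch between states. Its 62 genes (26 Vmn1r, 36 Vmn2r) had 3.99% of bins in state 7 in young livers, 68.7% in aged livers and 39.0% in restricted livers, with 72.1% of the bins unique. Without it, state 7 over all receptor windows was 23.2% in aged livers and 13.3% in restricted livers. The point at which the array is divided here, after Vmn1r230, was chosen after its values were seen, so the values on both sides are a description. The 48 genes up to Vmn1r230 had 4.42%, 75.8% and 42.6% of bins in state 7 and 0%, 1.18% and 0% in state 6, and the window of each had at least 24.7% in state 7 in aged livers. The 14 genes from Vmn1r231 on had 0%, 1.58% and 5.02% in state 7 and 26.4%, 67.9% and 19.7% in state 6. The division did not follow the families, as the 12 Vmn1r genes before the point had 85% in state 7 in aged livers, and the 14 genes after it are all Vmn1r. The sequence was unique on both sides, in 71.8% and 74.0% of bins.

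In aged livers the 42.2 kb between Vmn1r230 and Vmn1r231 held a stretch of state 7, a stretch of 7.0 kb in state 8, 20 kb in state 7 and then state 6 from chr17:20885201 on, so that state 7 and state 6 met directly. The largest gain of the array, with ties taken by position, was that of the pseudogene Vmn2r-ps116, with 0%, 100% and 41.2% in state 7. Vmn1r230 was at 0%, 100% and 90.9% in state 7 in the young, aged and restricted maps. Vmn1r231 was at 0%, 96.3% and 0% in state 6. Such direct borders were rare, with 23 of 1494 borders between states in the cluster spans in aged livers, 6 of 1063 in young livers and 1 of 1245 in restricted livers, while 65.7% of the borders in aged livers were between states 7 and 8.

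**Figure D4:**
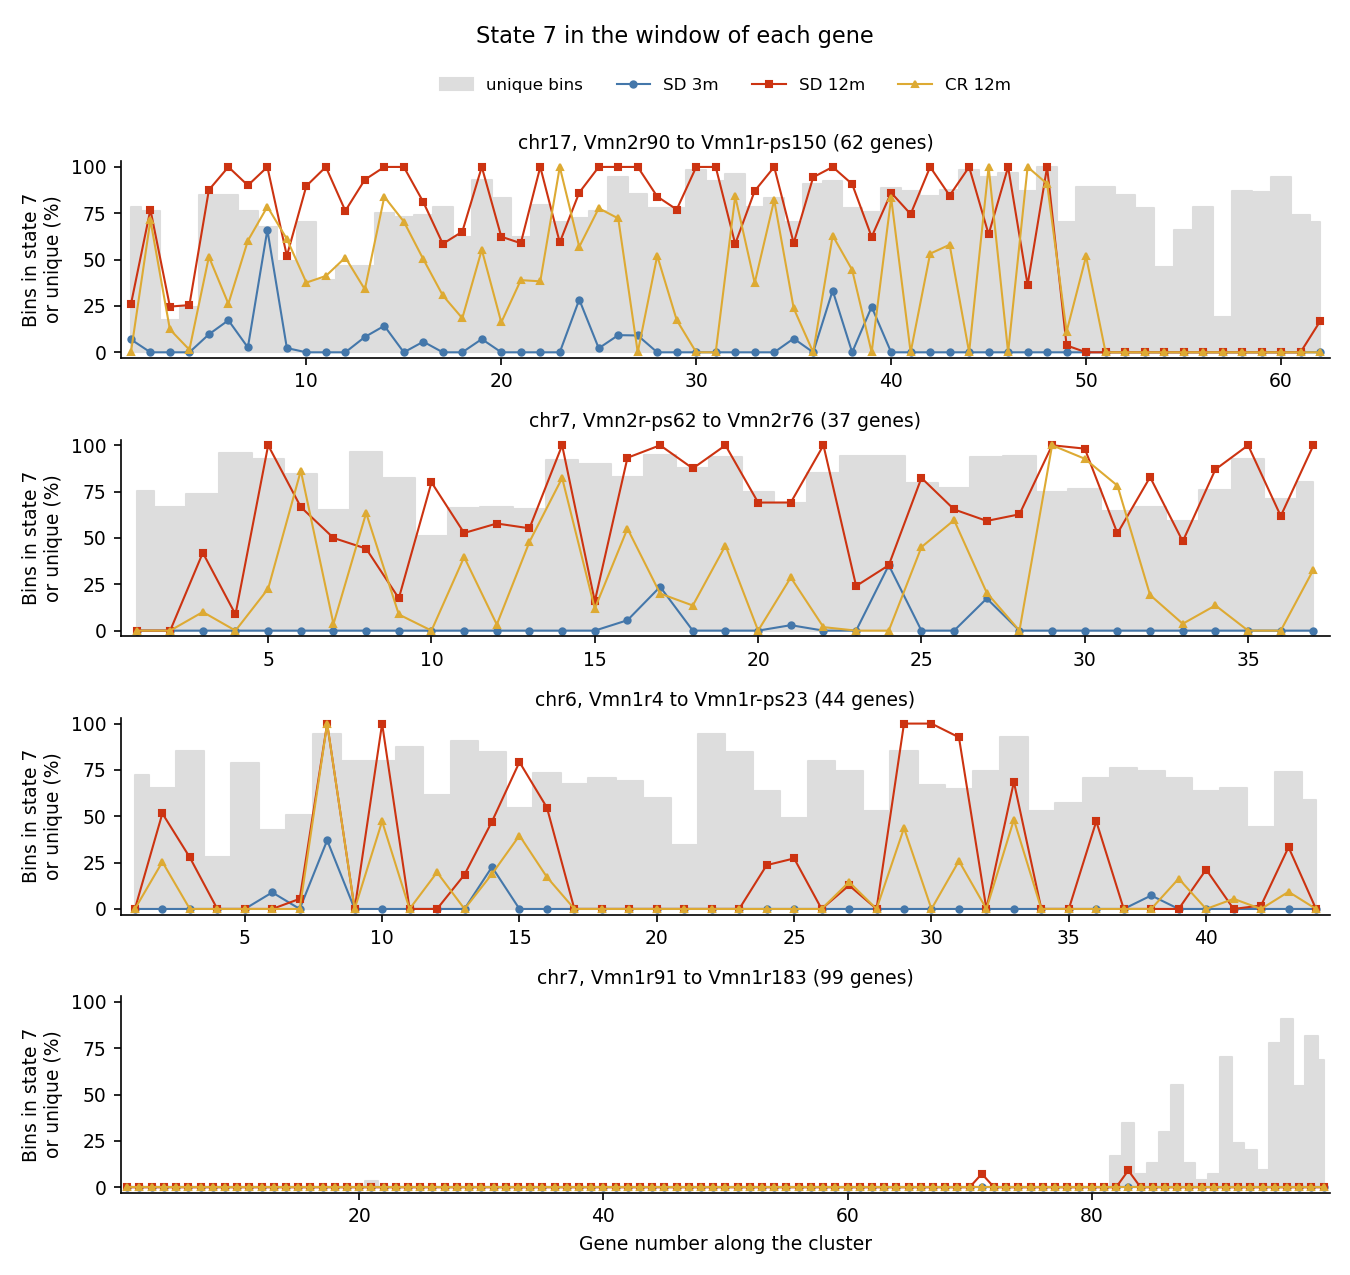
Share of the bins of each gene's window in state 7 (percent, y axis) in the 3 groups' maps, for genes in order along 4 clusters (x axis, gene number), with the share of bins holding at least 90% unique 50-mers in grey. In the chromosome 17 cluster all of the first 48 genes are at 24.7% or above in aged livers and the last 14 are at 16.7% or below, and in the cluster from Vmn1r91 to Vmn1r183 no gene is above 9.09%.

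Counted by gene, 174 of the 616 members (28.2%) gained state 7 in aged livers, meaning that its share of the window was at least 20 percentage points above that in young livers. This was so for 6.6% of all autosomal genes. In restricted livers 89 members (14.4%) gained it, against 2.42% of all genes, and 143 (23.2%) were at least 20 points higher in aged livers than in restricted livers, against 5.72%. Losses of that size were seen in 7 members in aged livers (1.14%, against 0.653% of all genes) and in 14 in restricted livers (2.27%, against 1.11%). Both older groups were compared with the same young map, so an error in that map counts in both. The 174 genes were 79 of 366 Vmn1r (21.6%) and 95 of 250 Vmn2r (38.0%), and 84 of 351 protein-coding genes and 90 of 265 pseudogenes. Of the 207 members in whose window under 20% of the bins were unique, 4 gained state 7 in aged livers, and of the other 409, 170 did.

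Any state 7 at all was found in the window of 110 members in young livers, 269 in aged livers and 191 in restricted livers, which is 17.9%, 43.7% and 31.0% of the members against 8.82%, 14.6% and 8.74% of all genes. It covered at least 50% of the window in 27, 155 and 73 members (4.38%, 25.2% and 11.9%, against 1.24%, 5.04% and 1.89% of all genes). The windows of 5, 66 and 20 members lay wholly in it (0.812%, 10.7% and 3.25%, against 0.321%, 1.89% and 0.550%). The median share over members was 0% in each group, as it was over all genes, and the upper quartile was 0%, 50% and 12.6% against 0% in each group over all genes. From young to aged livers state 7 was higher in 244 members, lower in 26 and equal in 346, so that 90.4% of the differing members had the higher share in aged livers, against 73.0% of the differing genes over all genes. From restricted to aged livers it was higher in 223, lower in 37 and equal in 356. The higher share was in aged livers in 85.8% of these differing members, about the same as over all genes (85%), so this direction was that of the whole genome.

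Over all members, gains of state 6 were less frequent than in the background. It gained 20 points or more in 42 members in aged livers (6.82%, against 9.18% of all genes) and in 15 in restricted livers (2.44%, against 6.85%). The count differed with the uniqueness of the window. Of the 207 members with under 20% unique bins 1 gained state 6, and of the other 409, 41 did (10.02%). In restricted livers 15 of these 409 did (3.67%), still below all genes. The share of all genes was not restricted by uniqueness, so the 409 members and all genes are not compared on like terms. In unique bins, state 6 covered 9.89% of the receptor windows in aged livers against 14.3% of the sample of the autosomes. Of the 42 members that gained state 6 in aged livers, 32 were Vmn1r and 10 Vmn2r genes. The 5 largest gains, with ties taken by position, were from 0% to 100% of the window, in Vmn1r21, Vmn1r33, Vmn1r-ps27, Vmn1r86 and Vmn1r180, and in restricted livers these had 94.4%, 43.6%, 0%, 0% and 0%. A window wholly in state 8 in all 3 groups was found in 260 members (42.2%) against 13.6% of all genes, and 183 of these 260 had under 20% of unique bins.

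The TSS bin was in state 7 in 37 members in young livers, 154 in aged livers and 79 in restricted livers, which is 6.01%, 25% and 12.8% against 1.85%, 5.73% and 2.42% of all genes. It was in state 6 in 18, 47 and 16 members, 2.92%, 7.63% and 2.60%, below the 10.48%, 13.7% and 11.2% of all genes. The TSS bin was in state 8 in all 3 groups in 386 members (62.7%, against 27.1% of all genes). These were 200 of the 207 members with under 20% unique bins and 186 of the other 409 (45.5%). The TSS bin went from state 8 in young livers to state 7 in aged livers in 122 members (19.8%, against 4.28%). It went from state 8 to state 7 in restricted livers in 52 (8.44%, against 1.44%). At the TSS bin of Vmn2r genes 38.0% were in state 7 in aged livers, with 36.4% at 5 kb before it and 35.2% at 5 kb after it. For Vmn1r the values were 16.1% at the TSS, 16.1% at 5 kb before and 20.8% at 5 kb after. Between these positions the Vmn2r share in aged livers ran from 34.4% at 3 kb before the TSS to 39.2% at 0.8 kb before it, its highest value, and 34.8% at 2 kb after it, a range of a few of the 250 genes. In the 122 protein-coding Vmn2r genes, state 7 in aged livers covered 33.1% of the bins in exons, 34.3% in introns, 33.4% in the 5 kb before the TSS and 37.1% in the 5 kb after the end, and in unique bins alone 52.3%, 51.5%, 55.6% and 56.2%.

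State 7 was not bounded by the genes. In the parts of the cluster spans between the receptor windows it covered 13.2% in young livers, 31.2% in aged livers and 20.9% in restricted livers, more than in the windows in each group, although fewer of those bins (35.2%) were unique. At the edges of the 18 clusters, it covered 22.1% of the outermost 50 kb inside the cluster in aged livers and 15.8% of the first 50 kb outside it, and 11.4% at 450 to 500 kb outside. States 1 to 5 changed more sharply there, from 0.8% in the outermost 50 kb to 10.9% in the first 50 kb outside and 23.0% in the next. The stretches of state 7 that overlapped the cluster spans had a median length of 4.6 kb in young livers, 9.6 kb in aged livers and 6.9 kb in restricted livers, against 3.0, 6.4 and 4.4 kb over the autosomes. The third longest such stretch in aged livers, 139.6 kb, ran over Vmn2r111 and Vmn2r112, and 26.9% of it was in state 7 in young livers and 87.1% in restricted livers.

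**Figure D5:**
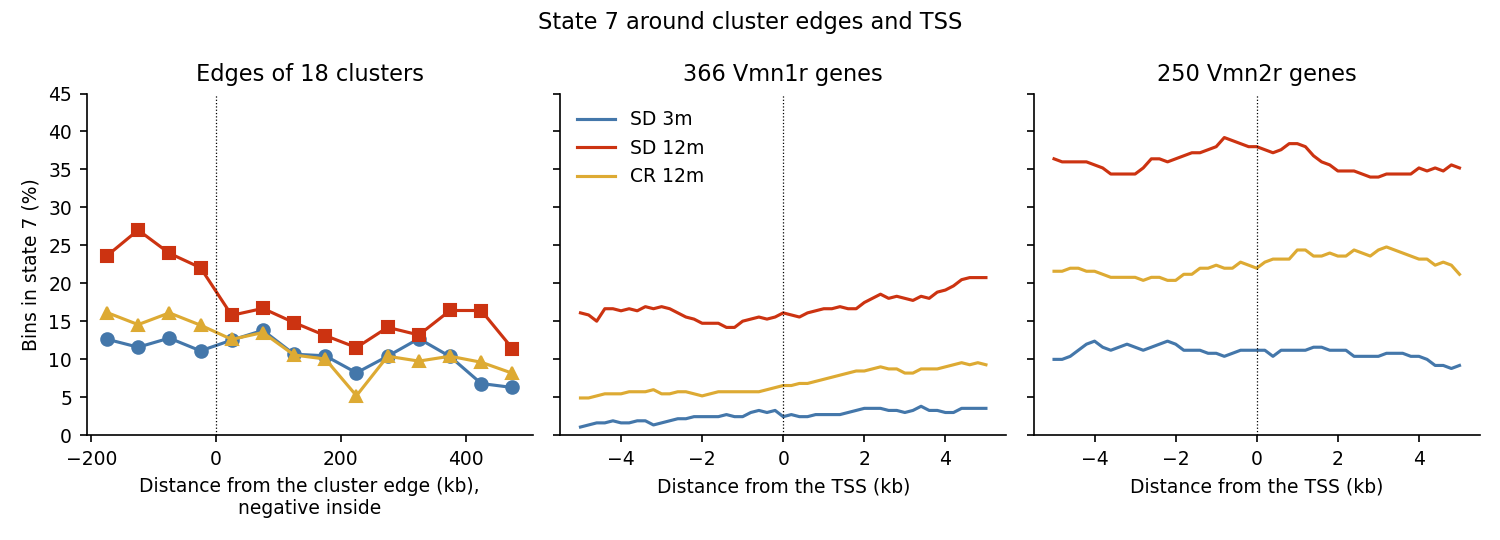
Share of bins in state 7 (percent, y axis) by distance in kb from the edges of the 18 clusters in steps of 50 kb (left, negative inside), and from the TSS of 366 Vmn1r genes (middle) and 250 Vmn2r genes (right), for each group's map. In aged livers the Vmn2r line is highest, at 39.2%, 0.8 kb before the TSS and lies at 34.4% 3 kb before it, and state 7 is at 22.1% just inside a cluster edge and 15.8% just outside.

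Active states were found at few members. Of the 57056 bins, 426 were in states 1 to 5 in any group, in 14 clusters, and 311 of these bins lay in clusters of 1 to 4 genes. By map, states 1 to 5 covered 0.459%, 0.584% and 0.613% of the receptor bins against 23.9%, 24.0% and 24.1% of the autosomal bins. The TSS bin was in states 1 to 5 in 7 of the 616 members in any group. Over all genes in young livers, it was in these states in 15.8%, 7.17%, 9.37%, 6.53% and 6.84%, in order of state. For Vmn1r4 (states 1, 2 and 1 in the young, aged and restricted maps) the TSS lies inside Nt5c3 and 0.094 kb from its start, and the TSS of the pseudogene Vmn1r-ps136 (state 4 in each group) lies inside Spryd7, so these states cannot be assigned to the receptor genes. The TSS of the remaining 5 lay inside no other gene record. Vmn1r1, a gene alone in its cluster on chromosome 1, had 81.5%, 100% and 100% of its window in states 1 to 5, and the nearest other annotated start was 29.9 kb away. On chromosome 7, Vmn1r184 had 38.2%, 27.3% and 63.6%, with its TSS in state 4 in each group, as had its neighbour Vmn1r-ps86. Vmn2r84 on chromosome 10 was in states 5, 4 and 8 at its TSS. Vmn2r29 was in states 1, 4 and 4, with 6.12% of its bins unique, and the gene Clcn4 lies within 2 kb of active bins of its window.

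Of 28 other genes of vomeronasal signalling looked up, 4 (14.3%) gained state 7 in aged livers, against 6.6% of all genes, and 1 (3.57%) in restricted livers, against 2.42%. State 6 was gained in aged livers by 5 (17.9%, against 9.18%), which were Bcl11b, Lhx2, H2-M10.1, H2-M10.3 and H2-M9. The 4 that gained state 7 were the formyl peptide receptor genes Fpr-rs3, Fpr-rs4, Fpr-rs6 and Fpr-rs7, which are expressed in vomeronasal neurons and lie on chromosome 17 within the span of the array that runs from Vmn2r90 to Vmn1r-ps150. All 4 had 0% in state 7 in young livers, and in aged livers Fpr-rs3 had 74.5%, Fpr-rs4 78.2%, Fpr-rs6 54.5% and Fpr-rs7 100%. In restricted livers Fpr-rs4 had 80.0% and the other three had 0%. The transduction channel gene Trpc2 had its TSS in state 8 in each group and no state 7. Gnao1, the G protein subunit of the V2R neurons, had its TSS in state 6 in each group, while Gnai2, that of the V1R neurons and widely used elsewhere, was in states 1, 3 and 2. Omp, the olfactory marker protein gene, had its whole window in states 1 to 5 in each group, but it lies inside Capn5. Gng8 had its TSS in states 3, 4 and 3 and 92.6%, 97.1% and 97.1% of its window in states 1 to 5. Its TSS lies inside no other gene record, and Dact3 reaches into its window. In the young, aged and restricted maps, the TSS was in states 1 to 5 in 9, 7 and 9 of the 28 genes. Over all genes in young livers, the TSS was in these states in 15.8%, 7.17%, 9.37%, 6.53% and 6.84%, in order of state. In aged livers these shares were 15.7%, 3.26%, 11.7%, 13.0% and 2.38%. In restricted livers they were 13.7%, 2.95%, 15.3%, 12.3% and 2.17%. In each map their sum was above the share of the 28 genes, so the counts show no excess over all genes.

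The H2-M10 and related class I genes, which are coexpressed with V2Rs in vomeronasal neurons, had no state 7 in any of the 9 looked up. Any state 7 was found in 8.82%, 14.6% and 8.74% of all genes, and 9 genes are too few to tell apart from that. Of the 9, 5 had state 6 in at least 1 group, and no such share over all genes is given here to set beside them. H2-M10.1 had 47.8% of its window in state 6 in young livers, 100% in aged livers and 43.3% in restricted livers, H2-M9 had 0%, 67.2% and 0%, and H2-M10.5 had 100%, 100% and 0%. The neuronal genes Stmn2 and Ncam1 had their TSS in state 6 in each group, and Omp and Gng8 had theirs in states 1 to 5. No olfactory or vomeronasal neuron marker of the 6 looked up had gained state 7. Over all genes the share was 6.6% in aged and 2.42% in restricted livers, and 6 genes are too few to tell apart from it. Of the 6, Stmn2 and Rbfox3 (33.3%, against 9.18% of all genes) gained state 6 in aged livers.

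Among the other chemosensory families, the olfactory receptor genes were the nearest to the vomeronasal ones in the share of genes that gained state 7. Their 1419 genes had 2.27% of bins in state 7 in young livers, 24.1% in aged livers and 8.79% in restricted livers, 467 of them (32.9%) gained state 7 in aged livers and 196 (13.8%) in restricted livers. They differed in state 6, which covered 9.02%, 19.5% and 12.9% of the olfactory bins, and in the uniqueness of the sequence, with 76.7% of bins unique. In unique bins state 7 covered 2.36%, 26.3% and 9.64% of the olfactory windows against 11.1%, 45.8% and 25.3% of the vomeronasal ones. Of 40 bitter taste receptor genes (Tas2r) 9 gained state 7 in aged livers and 1 in restricted livers, and of 16 trace amine-associated receptor genes (Taar) 1 and 0 did.

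The 62 receptor genes in the 33 clusters of 1 to 4 genes had more state 7 in young livers than the arrays, 16.4% against 6.89%, and were lower in aged livers, at 25.5% against 29.6%. State 7 was found in 11 of these clusters in young livers, 17 in aged livers and 18 in restricted livers, and 7 lay wholly in state 8 in all 3 groups. A single cluster, 3 Vmn2r pseudogenes on chromosome 4 at 145.7 to 146.6 Mb, held 2025 of the 7642 bins of this set. In young livers 28.6% of its bins were in state 7, which was 12.5% of the state 7 bins of all members. Only 4.99% of its bins were unique, so the young value of the set rests in large part on this cluster.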

How the data were processed

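ChIP-seq libraries of H3K4me3, H3K27me3, H3K27ac and H3K4me1 were made by the authors from fixed mouse livers. Reads were aligned to mm10 with BWA 0.6.2-r126, and reads with a mapping quality under 1, reads outside chromosomes 1 to 19 and X, and duplicates were removed with SAMtools 0.1.18. The libraries of a group were merged, and ChromHMM learned 1 model of 8 states over bins of 200 bp. The deposited files give a state label, not a score or count, for each stretch of the genome. SD 6m (20 libraries) was not analysed here.

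Vmn genes and the 3 segmentations were joined on GRCm38.p6 coordinates. Shares of bins carry Wilson 95% intervals. A gain is a rise of at least 20 percentage points over SD 3m, and a bin is unique where at least 90% of its 50-mers occur once in the genome. The counting of gains was checked on windows of chromosome 7 in which a known share was moved to state 7. There, 168 of 168 simulated gains were called. This covers the arithmetic only, and not mapping, depth or errors in the maps. The text names the gene with the largest gain of state 7 in each cluster of at least 5 genes, the 5 largest gains of state 7 and of state 6 and the 5 largest shares of state 7 in SD 3m over all members, each member with a TSS in states 1 to 5, and a list of pathway genes, with ties taken by position. Receptors with known ligands were added for their role. The members and lists were chosen with earlier results of these data known. Python 3.11.15, numpy 2.4.6, pandas 2.3.3 and numba 0.67.0 were used. No depth per map was given in the sources used here.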

Additional observations from a re-analysis of the deposited data

How the results depend on the processing

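In all 7 alternatives tried for the shares, state 7 was lowest in SD 3m, higher in CR 12m and highest in SD 12m. State 7 in SD 3m, SD 12m and CR 12m was 10.197%, 32.4% and 19.6% over gene bodies alone, 11.2%, 30.4% and 19.2% over whole cluster spans, 5.38%, 26.1% and 14.3% over protein-coding genes, 11.1%, 45.8% and 25.3% over unique bins, and 9.02%, 32% and 18.3% without the cluster with the most genes. The share of bins with another state than in SD 3m was, for SD 12m and CR 12m, 29.3% and 18.9% over gene bodies, 25.6% and 16.2% over cluster spans, 29.1% and 16.9% over protein-coding genes, 47.4% and 27.8% over unique bins, and 31.1% and 18.3% without that cluster. Genes that gained state 7 numbered 84 for SD 12m and 47 for CR 12m among protein-coding genes, where fewer genes were counted, and 43 in CR 12m with a gain of at least 50 points. The other 21 values moved less than their interval or, for counts, by under 1.5 times. No paired analysis was possible because each group has 1 merged segmentation and no result comes from a test. Differences between maps in merged read depth cannot be told apart from age or diet.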
